A study of Mus musculus with 4 samples.

Results

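RNA of 35 genes of glycolysis and the hypoxia response was examined in mouse embryonic stem cells labelled as lacking Kdm2a, a demethylase of histone H3 lysine 36, and in wild-type cells. The genes are glycolytic enzymes, carriers of glucose and lactate, and genes of the hypoxia-inducible factor (HIF) pathway. They were chosen by name, with earlier results of these data known, and all 35 were found among the 24116 genes of the count table. The tested group was 2 libraries from cells of the line made with a Kdm2a guide RNA, from which GFP-positive cells were sorted and a single clone was expanded. An effect of Kdm2a therefore cannot be told apart from one of the clone. Their titles say knock out and their genotype label says knocked down. The other group was 2 libraries of wild-type cells. All 4 libraries carry the strain label 12910la and came from cells grown on gelatin, in high-glucose medium with 15% serum and 10 ng/ml LIF. No oxygen level is given by the labels.

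Glycolysis splits glucose into pyruvate. Hexokinase traps glucose in the cell, phosphofructokinase commits it to the pathway, aldolase splits the sugar, and the later enzymes recover ATP. Lactate dehydrogenase then turns pyruvate to lactate, which leaves the cell through monocarboxylate carriers. HIF is a transcription factor whose alpha subunit, encoded by Hif1a, is marked for destruction by the prolyl hydroxylases Egln1 and Egln3 when oxygen is present. When oxygen is scarce HIF raises most genes of glycolysis along with genes of autophagy, blood vessel growth and matrix formation. Embryonic stem cells are known for a high rate of glycolysis even in ample oxygen.

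HIF binds DNA at the letters ACGTG or GCGTG, so both were searched for, on both strands, in RefSeq promoter windows of GRCm38.p6 that run from 250 bases before to 50 after a gene's start. An entry was found for 33 of the 35 genes, with 48 windows in all. ACGTG stood in at least 1 window of 23 of these 33 genes, or 69.7%, against 29.1% of the 11153 tested genes with an entry. GCGTG stood in 22 of 33, or 66.7%, against 55.5%. By window, ACGTG was found in 52.1% of those of the 35 genes, in 25.1% of those of all genes tested and in 19.6% of all 32851 windows. The median number of CG pairs per window was 20.5 for the 35 genes and 20 for the genes tested. ACGTG also lies within CACGTG, a site that other factors bind, where it is counted on each strand. A match is a description of the letters and not a bound site. The windows of 5 genes are printed because they carry the main contrasts below: Egln3, Bnip3, Kdm3a and Slc16a3 were highest in the library labelled knockout 2, and Hk2 was lowest there. They lie at chr12:54203825-54204124 (minus strand), chr7:138909457-138909756 (minus), chr6:71632868-71633167 (minus, the first listed of 3 for Kdm3a), chr11:120948817-120949116 (plus) and chr6:82774405-82774704 (minus). Capitals mark the matches on either strand.
Egln3: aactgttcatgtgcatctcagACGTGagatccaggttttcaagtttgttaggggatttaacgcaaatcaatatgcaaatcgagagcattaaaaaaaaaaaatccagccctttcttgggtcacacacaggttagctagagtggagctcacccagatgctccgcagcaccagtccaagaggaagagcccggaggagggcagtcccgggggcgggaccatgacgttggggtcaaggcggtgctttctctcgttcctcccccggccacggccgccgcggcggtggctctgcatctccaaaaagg
Bnip3: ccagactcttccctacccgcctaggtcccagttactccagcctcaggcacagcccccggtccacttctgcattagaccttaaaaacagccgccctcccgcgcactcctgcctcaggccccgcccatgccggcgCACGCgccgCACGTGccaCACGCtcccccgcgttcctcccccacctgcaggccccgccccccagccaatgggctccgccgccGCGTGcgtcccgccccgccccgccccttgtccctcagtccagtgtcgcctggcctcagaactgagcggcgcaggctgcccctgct
Kdm3a: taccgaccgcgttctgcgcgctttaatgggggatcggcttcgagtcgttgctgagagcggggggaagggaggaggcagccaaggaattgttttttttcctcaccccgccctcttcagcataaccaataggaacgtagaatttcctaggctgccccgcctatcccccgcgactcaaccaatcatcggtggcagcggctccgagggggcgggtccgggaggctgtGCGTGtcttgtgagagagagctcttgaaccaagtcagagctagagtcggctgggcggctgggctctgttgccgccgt
Slc16a3: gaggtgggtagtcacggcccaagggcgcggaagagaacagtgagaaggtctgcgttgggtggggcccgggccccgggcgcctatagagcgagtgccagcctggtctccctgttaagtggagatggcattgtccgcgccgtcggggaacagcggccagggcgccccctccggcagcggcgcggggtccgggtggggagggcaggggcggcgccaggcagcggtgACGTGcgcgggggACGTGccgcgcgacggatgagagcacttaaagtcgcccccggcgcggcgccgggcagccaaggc
Hk2: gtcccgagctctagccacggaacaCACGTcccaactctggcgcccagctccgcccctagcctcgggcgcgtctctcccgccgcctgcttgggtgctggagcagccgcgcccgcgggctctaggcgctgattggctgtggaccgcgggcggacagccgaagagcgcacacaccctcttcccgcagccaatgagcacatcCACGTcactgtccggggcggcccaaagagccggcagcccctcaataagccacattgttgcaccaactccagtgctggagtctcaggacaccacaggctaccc
The Egln3 window held ACGTG at 1 place, those of Slc16a3 and Hk2 at 2 places each, and that of Bnip3 at a single CACGTG beside 3 matches to GCGTG. The printed Kdm3a window held only GCGTG, once. Hk2, which was lowest in labelled knockout 2, thus held ACGTG as did Egln3, Bnip3 and Slc16a3, which were highest there. A relation between these letters and the levels was not tested.

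Total counts were 19056529 and 18872382 in the libraries labelled knockout 1 and 2, and 19005131 and 18844246 in wild type 1 and 2. Kdm2a (Entrez gene 225876) had 194 and 261 CPM (counts scaled to library size with TMM factors) in labelled knockout 1 and 2 against 152 and 184 CPM in wild type 1 and 2, at a log2 fold change of 0.44 (SE 0.24). Its RNA was thus not lower in the libraries labelled knockout. The difference was not called (unadjusted p = 0.115 by the edgeR quasi-likelihood test). What is called higher or lower below rests on those labels. Knockout 2, as labelled, stood apart. Across the 14194 genes tested, which are not independent replicates, log2 CPM correlated at r = 0.952 between the libraries labelled knockout and at 0.984 and 0.978 between labelled knockout 1 and wild type 1 and 2. The wild-type libraries correlated at r = 0.968. The 10 embryonic stem cell markers were all present, with summed levels of 6485 and 5391 CPM in labelled knockout 1 and 2 and 6072 and 6049 CPM in wild type 1 and 2. Single markers differed more than these sums. Only 1 of the 10 was higher in labelled knockout 2 than in labelled knockout 1. Klf4 had 533 and 251 CPM and Utf1 602 and 331 CPM in labelled knockout 1 and 2. In wild type 2, 4 of the 10 were higher than in wild type 1. Nanog had 383 and 761 CPM and Zfp42 260 and 565 CPM in wild type 1 and 2. Of 8 fibroblast markers the collagen genes Col1a2 and Col3a1 and the matrix genes Dcn, Lum and Postn had at most 6 counts in any library, and the 8 summed to 62.9 and 29.9 CPM in labelled knockout 1 and 2 and 89.5 and 37.3 CPM in wild type 1 and 2. The rest of the list was present and highest in wild type 1. Thy1 had 593 and 323 counts in labelled knockout 1 and 2 and 699 and 316 in wild type 1 and 2. In the same order Pdgfrb had 504, 180, 841 and 320 counts, and the collagen gene Col1a1 had 100, 38, 169 and 82. Markers of primitive endoderm summed to 12.0 and 20.01 CPM in labelled knockout 1 and 2 and 15.0 and 7.62 CPM in wild type 1 and 2, mesoderm markers to 14.8 and 31.1 against 16.6 and 21.4 CPM, neural markers to 113 and 145 against 84.9 and 117 CPM, and trophoblast markers to 45.3 and 77.1 against 70.6 and 24.9 CPM. The mesoderm, neural and trophoblast sums came mostly from 1 gene each. In labelled knockout 1 and 2 and wild type 1 and 2, Eomes held 10.35, 25.9, 12.75 and 16.64 CPM of the mesoderm sum. In the same order Tubb3 held 78.4, 87.4, 54.5 and 84.1 CPM of the neural sum. Tfap2c held 43.5, 75.05, 66.3 and 23.1 CPM of the trophoblast sum, while Cdx2 and Elf5 had at most 2 counts in any library. The part of these marker lists in the results was not tested. In bulk RNA, fewer cells of a type and less RNA per cell cannot be told apart.

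None of the 35 genes passed the test. The edgeR quasi-likelihood test, adjusted over all 14194 genes, called 0 of 35 at an adjusted p under 0.05, with a background of 0% of all genes, and DESeq2, the edgeR likelihood ratio test and limma-voom also called 0 of the 35. At an unadjusted p under 0.05 there were 2, Gapdh and Egln3, against a background of 1.7%. Egln3 was the 1 on the higher side, with a background of 0.888%, and Gapdh the 1 on the lower side, with a background of 0.817%. Of the 35 genes, 26 had a positive log2 fold change (knockout minus wild type), or 74.3%, against 50.5% of all genes tested. Their median log2 fold change was 0.20 and that of all genes 0.00. The libraries of the 2 labels did not overlap for 7 of the 35 genes, against 24.4% of all genes. These were Egln1, Egln3, Bnip3, Ldha and Slc2a1 on the higher side (5 of 35, with a background of 11.7%) and Gapdh and Pfkm on the lower side (2 of 35, with a background of 12.7%). The share of genes whose libraries separated by label was thus not above the background. The positive count rested on the library labelled knockout 2 and on wild type 2: it was 16 of 35 without labelled knockout 2, with a median of -0.03, and 18 of 35 without wild type 2, with a median of 0.01.

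**Figure D1:**
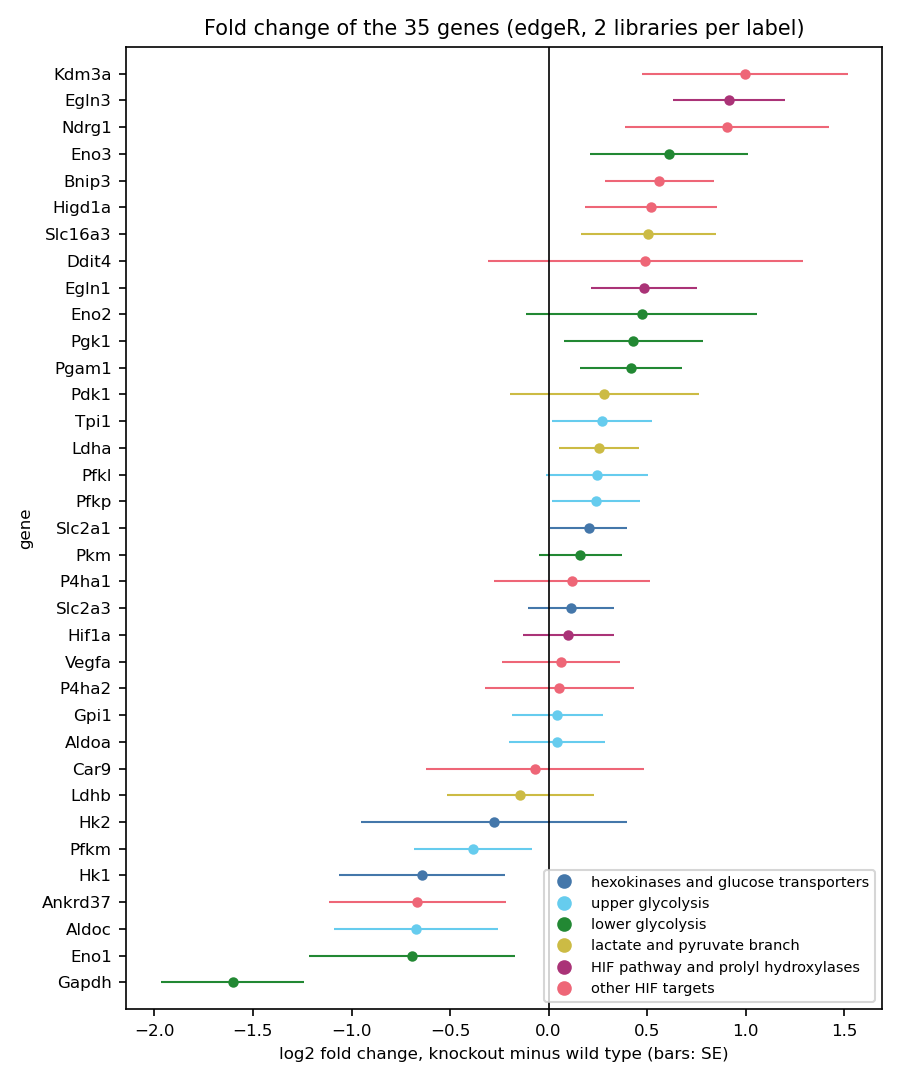
Log2 fold change (knockout minus wild type) of the 35 genes on the horizontal axis, with the standard error as a bar, for 2 libraries per label and with genes coloured by role. Gapdh at -1.60 lies farthest below 0, Kdm3a at 1.00 and Egln3 at 0.92 lie highest, and no gene passed the adjusted test.

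The gaps between libraries of the same label are given beside the fold changes, although a gap between single libraries is expected to be wider than a difference between means of 2 libraries, and over all genes the gaps also exceeded the fold changes. The median absolute log2 difference was 0.58 between the libraries labelled knockout 2 and knockout 1 and 0.44 between wild type 2 and wild type 1, while the median absolute log2 fold change between the labels was 0.39 (0.39 and 0.34 within labels and 0.22 between labels over all genes tested). The fold change exceeded both gaps for 3 of the 35 genes, Gapdh, Egln1 and Egln3, or 8.57%, against 13.7% of all genes. The direction within a label was shared by most of them. Of the 35, 26 were higher in labelled knockout 2 than in labelled knockout 1 (74.3%, against 50.0% of all genes), and 28 were higher in wild type 1 than in wild type 2 (80.0%, against 52.5%). In consequence the library labelled knockout 2 was the highest of the 4 for 20 genes (57.1%, against 33.6% of all genes), and wild type 2 was the lowest for 21 (60.0%, against 22.5%). For 23 of 35 genes labelled knockout 1 had a level between those of wild type 1 and 2 (65.7%, against 48.3% of all genes). Over all genes the differences within the 2 labels had the same sign in 63.7%, but for the 35 genes in 12, or 34.3%.

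**Figure D2:**
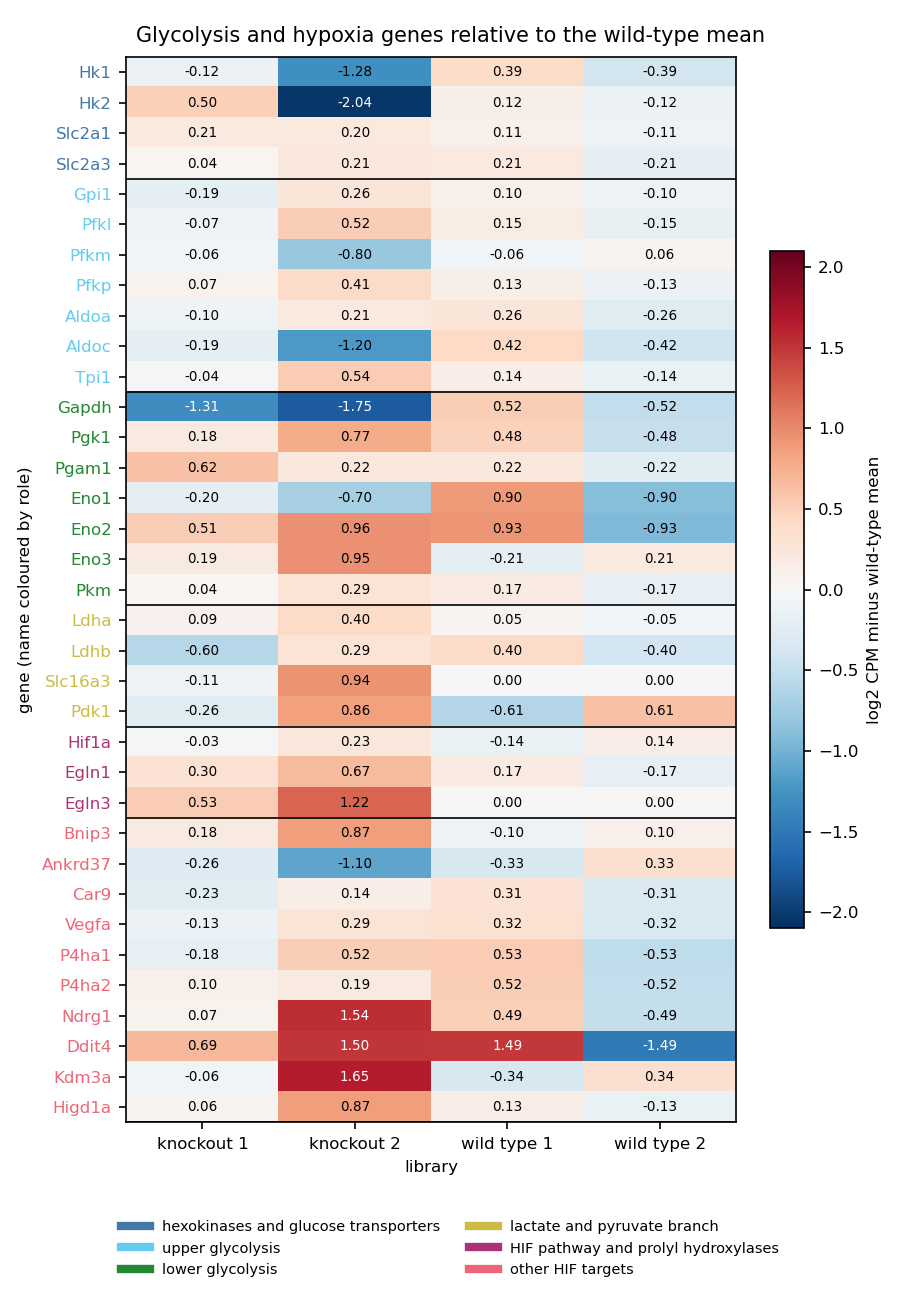
Each cell is the log2 CPM of a gene in a library minus the mean of the wild-type libraries, so that wild type 1 and 2 mirror each other. Rows are the 35 genes in order of role and columns are the 4 libraries. The column of labelled knockout 2 holds the highest values (Kdm3a at 1.65, Ndrg1 at 1.54) and the lowest (Hk2 at -2.04), while in labelled knockout 1 Gapdh at -1.31 lies farthest from 0.

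**Figure D3:**
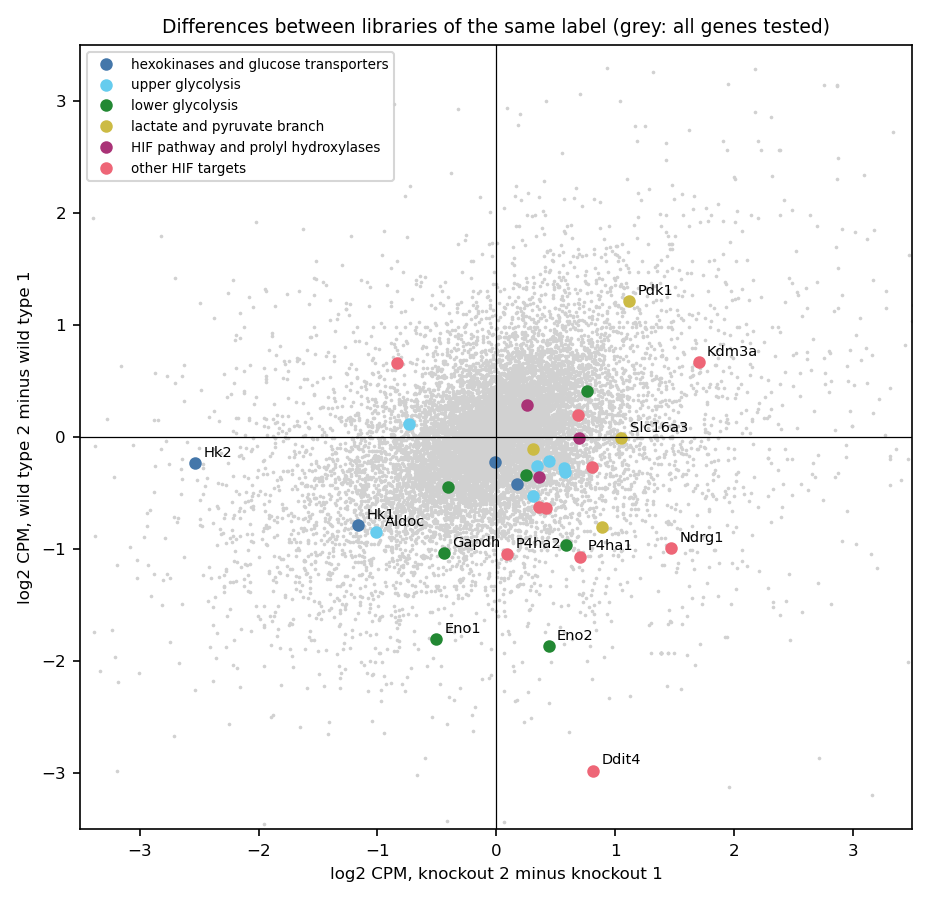
Log2 CPM difference between the libraries labelled knockout (2 minus 1, horizontal) and between the wild-type libraries (2 minus 1, vertical) for the 35 genes in colour and all genes tested in grey, with 41 genes beyond the axis limit of 3.5. The coloured points gather at the lower right, above 0 between the libraries labelled knockout and below 0 between the wild-type libraries, with Ddit4 lowest at -2.98 and Hk2 farthest left at -2.54.

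Slc2a1 (GLUT1) and Slc2a3 (GLUT3) are carriers that bring glucose into cells, and both lay among the 7 most abundant of the 35 genes per length. Slc2a1 had 1358 and 1352 CPM in the libraries labelled knockout 1 and 2 against 1266 and 1089 CPM in wild type 1 and 2. Its labels did not overlap, but the log2 fold change was only 0.20 (SE 0.19). Slc2a3 had 1852 and 2093 CPM in labelled knockout 1 and 2 against 2082 and 1564 CPM in wild type 1 and 2, which overlapped, with a log2 fold change of 0.11 (SE 0.22). On a per-length scale, TPM (counts per kilobase of exon, scaled to the same total in each library), Slc2a3 made up 52.9% and 56.0% of the sum of these 2 carriers in labelled knockout 1 and 2 and 57.5% and 54.2% in wild type 1 and 2. The balance between the carriers therefore moved by a few points only.

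The hexokinases were lowest in the library labelled knockout 2. Hk2 is the inducible hexokinase and a known HIF target (Entrez gene 15277, on chromosome 6 of GRCm38.p6 at 82725025 to 82774454). It had 6281 and 1027 counts in the libraries labelled knockout 1 and 2 and 4818 and 4129 counts in wild type 1 and 2. In CPM these were 328 and 56.5 against 252 and 214. The libraries labelled knockout thus lay on both sides of wild type, and the level in labelled knockout 2 was 0.172 of that in labelled knockout 1. The log2 fold change of -0.28 (SE 0.67) describes neither library. Without the library labelled knockout 1, Hk2 was the single member called, at -2.05 (SE 0.35, adjusted p = 0.0304 by the edgeR quasi-likelihood test, in a fit where the lone library is assumed to vary like wild type and which called 91 of 14714 genes), and without labelled knockout 2 it stood at 0.50. Hk1, the housekeeping hexokinase, had 249 and 111 CPM in labelled knockout 1 and 2 against 357 and 207 CPM in wild type 1 and 2, and was likewise lowest in labelled knockout 2. Of the TPM of both hexokinases, Hk2 took 53.2% and 30.4% in labelled knockout 1 and 2 and 37.9% and 47.2% in wild type 1 and 2.

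In the upper part of glycolysis 5 of 7 genes had a positive fold change (71.4%, against 50.5% of all genes). The libraries of the 2 labels overlapped for all except Pfkm (14.3% not overlapping, against 24.4% of all genes). Aldoa, the main aldolase of these cells and the most abundant gene of this step, had 3114 and 3857 CPM in labelled knockout 1 and 2 against 3991 and 2780 CPM in wild type 1 and 2. Its log2 fold change was 0.04 (SE 0.24), and it turned to -0.004 with scaling by library totals. Pfkm, the muscle-type phosphofructokinase, had 66.7 and 40.1 CPM in labelled knockout 1 and 2 against 66.9 and 72.5 CPM in wild type 1 and 2, a log2 fold change of -0.39 (SE 0.30). Only labelled knockout 2 was clearly lower, since labelled knockout 1 and wild type 1 were nearly equal. The liver and platelet forms Pfkl and Pfkp were highest in that library, at 858 and 726 CPM, so that the share of Pfkm in the TPM of the 3 forms was 7.19% and 3.24% in labelled knockout 1 and 2 and 6.55% and 8.49% in wild type 1 and 2. Aldoc, the brain-type aldolase, had the same order of libraries as Hk1, with 65.5 and 32.4 CPM in labelled knockout 1 and 2 against 100.3 and 55.7 CPM in wild type 1 and 2. Gpi1, which makes fructose 6-phosphate, and Tpi1, which interconverts the triose phosphates, were at 0.05 (SE 0.23) and 0.27 (SE 0.25), and both were highest in labelled knockout 2.

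Gapdh was the member with the lowest p. This enzyme oxidises glyceraldehyde 3-phosphate and is often used as a reference gene (Entrez gene 14433, on chromosome 6 at 125161852 to 125166467). It had 2993 and 2097 counts in the libraries labelled knockout 1 and 2 and 10619 and 5230 counts in wild type 1 and 2, or 156 and 115 against 555 and 271 CPM. Both libraries labelled knockout lay below both wild-type libraries, with means of 136 ± 29.1 CPM and 413 ± 201 CPM (SD, n = 2 each). The log2 fold change was -1.60 (SE 0.37), with unadjusted p = 0.00321 and adjusted p = 1.00 by the edgeR quasi-likelihood test and adjusted p = 0.0955 by DESeq2. It was between -2.02 and -0.997 with any 1 library left out, the same direction each time. Of its 50-base windows, the length of the reads, 25.1% also occur in other annotated genes, 213 of these 223 being pseudogenes. That is 1155 of 4598 windows, which pool retained introns, while its exon length is 1495 bases. The share within exons alone can therefore be higher and was not measured. How reads from shared windows were counted is not given in the sources used here.

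Of the 7 genes of lower glycolysis 5 had a positive fold change (71.4%, against 50.5% of all genes). All except Gapdh overlapped between the labels (14.3% not overlapping, against 24.4% of all genes). Pkm, pyruvate kinase and the most abundant of the 35 genes per length at 5802 ± 639 TPM in the libraries labelled knockout and 5308 ± 579 TPM in wild type (SD, n = 2 each), had 5101 and 6055 CPM in labelled knockout 1 and 2 against 5568 and 4410 CPM in wild type 1 and 2. Its log2 fold change was 0.16 (SE 0.21). Pgk1, phosphoglycerate kinase, had 1193 and 1794 CPM in labelled knockout 1 and 2 against 1466 and 751 CPM in wild type 1 and 2, and Pgam1, phosphoglycerate mutase, was at 0.42 (SE 0.26). Of their windows, 53.9% and 36.2% also occur in annotated pseudogenes. Eno1, the main enolase, had 1929 and 1360 CPM in labelled knockout 1 and 2 against 4131 and 1182 CPM in wild type 1 and 2, so that wild type 1 alone stood high. Eno2, the neuronal enolase, had 16.6 and 22.5 CPM in labelled knockout 1 and 2 against 22.2 and 6.01 CPM in wild type 1 and 2. Eno3, the muscle enolase, had 12.3 and 21.1 CPM in labelled knockout 1 and 2 against 9.35 and 12.5 CPM in wild type 1 and 2. Neither minor enolase separated by label.

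Eno1 shares part of its sequence with Eno1b, and how shared reads were counted is not known. A share of 25.3% of the 5509 Eno1 windows occurs in Eno1b. These windows pool retained introns, while the exon length of Eno1 is 2546 bases. The share within its exons can therefore be higher and was not measured. The counts of Eno1b were 34272 and 24870 in the libraries labelled knockout 1 and 2 and 70063 and 21900 in wild type 1 and 2. Those of Eno1 were 36915, 24733, 79061 and 22800 in the same order. The ratio of Eno1b to Eno1 was 0.928 and 1.01 in labelled knockout 1 and 2 and 0.886 and 0.961 in wild type 1 and 2. Both rows were highest in wild type 1 and lowest in wild type 2. With the rows summed, the log2 fold change was -0.65 (SE 0.51), against -0.69 (SE 0.52) for Eno1 alone. Over the 27 members with under 20% of their windows in another gene, 21 were positive and the median log2 fold change was again 0.20. Since the windows pool retained introns, this cutoff does not pick genes whose exons are free of shared sequence. Gpi1, for example, passed it with 1051 of 6635 windows shared, at an exon length of 2884 bases.

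**Figure D4:**
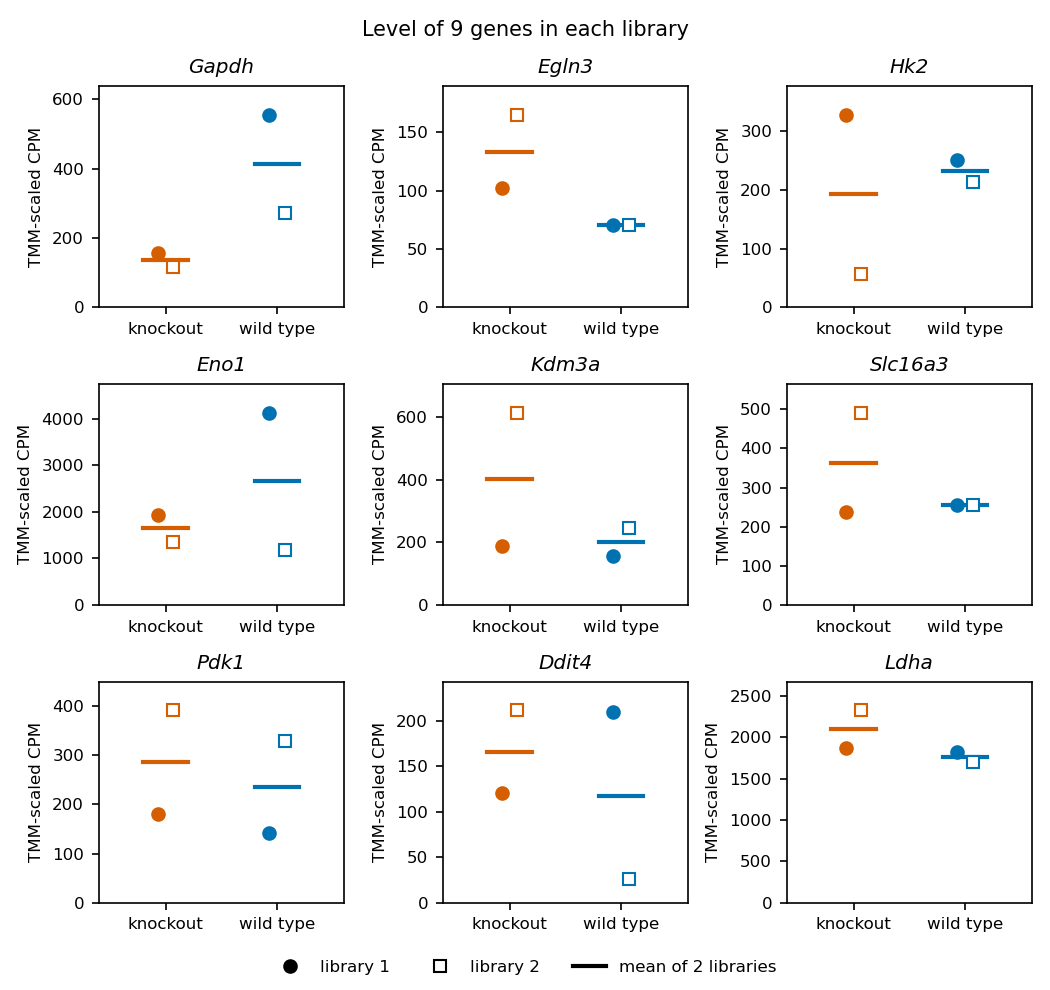
TMM-scaled CPM of 9 of the genes, with the libraries labelled knockout at the left and wild type at the right of each panel, filled circles for library 1, open squares for library 2 and a line for the mean of 2 libraries. Gapdh, Egln3 and Ldha separate by label, while Hk2, Kdm3a and Slc16a3 are set by labelled knockout 2, Eno1 by wild type 1, and Ddit4 by wild type 2, and Pdk1 is higher in library 2 of each label.

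Of the 4 genes at the end of the pathway, where pyruvate becomes lactate, 3 were highest in the library labelled knockout 2 (75.0%, against 33.6% of all genes). Ldha, the lactate dehydrogenase subunit that HIF induces, had 1876 and 2327 CPM in labelled knockout 1 and 2 against 1821 and 1698 CPM in wild type 1 and 2. The labels did not overlap, but labelled knockout 1 lay 0.09 above the wild-type mean on the log2 scale and the log2 fold change was 0.26 (SE 0.20). Ldhb, the other subunit, was lowest in labelled knockout 1, with 299.5 and 557 CPM in labelled knockout 1 and 2 against 601 and 344 CPM in wild type 1 and 2. Its share of the lactate dehydrogenase TPM was 18.8% and 25.8% in labelled knockout 1 and 2 and 32.4% and 22.8% in wild type 1 and 2. Slc16a3, the carrier MCT4 that exports lactate, had 237 and 492 CPM in labelled knockout 1 and 2 against 257 and 256 CPM in wild type 1 and 2, a log2 fold change of 0.51 (SE 0.34) that was -0.11 without labelled knockout 2. Wild type was steady here, and a single library made the difference. Pdk1 is a kinase that inhibits pyruvate dehydrogenase. It had 180 and 391 CPM in labelled knockout 1 and 2 against 141 and 328 CPM in wild type 1 and 2. It was 2.17-fold higher in labelled knockout 2 than in labelled knockout 1 and 2.33-fold higher in wild type 2 than in wild type 1, while its log2 fold change between the labels was 0.28 (SE 0.48).

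Among the 3 genes of the HIF pathway and its prolyl hydroxylases in the set, Hif1a had the smallest fold change and Egln3 the largest. Hif1a had 130 and 155 CPM in the libraries labelled knockout 1 and 2 against 119 and 146 CPM in wild type 1 and 2, a log2 fold change of 0.10 (SE 0.23). Egln3, a prolyl hydroxylase that is itself a HIF target (Entrez gene 112407, on chromosome 12 at 54178981 to 54203874), had 1949 and 3000 counts in labelled knockout 1 and 2 and 1356 and 1360 counts in wild type 1 and 2. Its mean was 133 ± 44.6 CPM in the libraries labelled knockout and 70.7 ± 0.238 CPM in wild type (SD, n = 2 each), with no overlap. The log2 fold change was 0.92 (SE 0.28), with unadjusted p = 0.0145 and adjusted p = 1.00 by the edgeR quasi-likelihood test, and it lay between 0.53 and 1.22 with any library left out. Egln1, the main oxygen sensor of the pathway, had 50.7 and 65.3 CPM in labelled knockout 1 and 2 against 46.5 and 36.4 CPM in wild type 1 and 2, also without overlap, at 0.48 (SE 0.27).

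Among the other 10 HIF targets 8 had a positive fold change (80.0%, against 50.5% of all genes). In the library labelled knockout 2, 5 of them were highest (50.0%, against 33.6% of all genes). In wild type 2, 7 of them were lowest (70.0%, against 22.5% of all genes), and 4 were highest in wild type 1. Kdm3a, an oxygen-dependent demethylase of histone H3 lysine 9 (Entrez gene 104263, on chromosome 6 at 71588970 to 71632990), had 3605 and 11172 counts in labelled knockout 1 and 2 and 2970 and 4766 counts in wild type 1 and 2. Its log2 fold change of 1.00 (SE 0.52, unadjusted p = 0.0980 and adjusted p = 1.00 by the edgeR quasi-likelihood test) was -0.095 without labelled knockout 2. Ndrg1, a stress-induced growth regulator, had 72.5 and 201 CPM in labelled knockout 1 and 2 against 97.0 and 48.8 CPM in wild type 1 and 2. Both genes overlapped between the labels. Bnip3, which starts the removal of mitochondria and was the most abundant of these targets per length, had 194 and 312 CPM in labelled knockout 1 and 2 against 159 and 183 CPM in wild type 1 and 2, without overlap, at 0.56 (SE 0.28). Of its windows 47.2% occur in other annotated genes. Higd1a, a mitochondrial inner membrane protein, was at 0.52 (SE 0.33).

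Ddit4, a brake on mTORC1, had the widest range between libraries of 1 label. It had 120 and 212 CPM in the libraries labelled knockout 1 and 2 against 210 and 26.5 CPM in wild type 1 and 2, where wild type 2 stood at 0.127 of wild type 1. Its log2 fold change was 0.49 (SE 0.80), with 2.65 without wild type 1 and -0.33 without wild type 2. P4ha1 and P4ha2, the catalytic subunits of collagen prolyl hydroxylase, were also lowest in wild type 2. P4ha1 had 110 and 180 CPM in labelled knockout 1 and 2 against 181 and 86.4 CPM in wild type 1 and 2, and P4ha2 had 29.9 and 31.9 CPM in labelled knockout 1 and 2 against 40.1 and 19.4 CPM in wild type 1 and 2. Their log2 fold changes were 0.12 (SE 0.40) and 0.06 (SE 0.38). Vegfa, the growth factor of blood vessels, was at 0.06 (SE 0.30). Car9, a carbonic anhydrase that is nearly silent without hypoxia in many tissues, was the lowest of the 35 genes per length, with 38 and 47 counts in labelled knockout 1 and 2 and 56 and 36 counts in wild type 1 and 2. Ankrd37 had a negative log2 fold change, -0.67 (SE 0.45), as did Car9 at -0.07 (SE 0.55). Ankrd37 had 11.3 and 6.27 CPM in labelled knockout 1 and 2 against 10.8 and 17.1 CPM in wild type 1 and 2.

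Neighbouring pathways were read from lists that do not contain the 35 genes. The lists, like the 35 genes, were chosen with earlier results of these data known. Of the genes in these lists, 0 passed the edgeR quasi-likelihood test. Of 49 other HIF targets, 46 were tested and 36 of these had a positive fold change (78.3%, against 50.5% of all genes), with a median of 0.30 and 1 gene at an unadjusted p under 0.05. The library labelled knockout 2 was the highest of the 4 for 35 of the 46, or 76.1%, against 33.6% of all genes. The library medians relative to the wild-type mean were 0.01 and 0.51 in labelled knockout 1 and 2 and 0.13 and -0.13 in wild type 1 and 2, and without labelled knockout 2 the median fold change of the list was -0.03. Bhlhe40, a transcriptional repressor, had 2277 and 11484 counts in labelled knockout 1 and 2 and 2463 and 1607 counts in wild type 1 and 2, at 1.82 (SE 0.69). Stc2, a secreted stanniocalcin, had 146 and 885 counts in labelled knockout 1 and 2 and 171 and 137 counts in wild type 1 and 2, at 1.81 (SE 0.77). In both, labelled knockout 2 stood alone.

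Of 17 regulators of HIF tested, 9 were positive (52.9%, against 50.5% of all genes), with a median of 0.05 and library medians of 0.03 and 0.07 in labelled knockout 1 and 2. The library labelled knockout 2 was the highest for 8 of the 17, or 47.1%, against 33.6% of all genes. The difference between this list and the HIF targets was not tested. The lowest p-values belonged to Egln2, the remaining prolyl hydroxylase of the family, at 0.39 (SE 0.24), and Siah2, a ubiquitin ligase that acts on prolyl hydroxylases, at -0.55 (SE 0.35). Of 20 further glycolytic genes 16 were tested, 6 positive (37.5%, against 50.5% of all genes) and 10 negative. The lowest p-values belonged to Ldhc, the testis lactate dehydrogenase, and Pgm2, a phosphoglucomutase. Ldhc had 14 and 2 counts in labelled knockout 1 and 2 against 35 and 40 in wild type 1 and 2, and Pgm2 was at -0.70 (SE 0.33). Pfkfb3, which makes an activator of phosphofructokinase and is also in the list of other HIF targets, was named after its values were seen. It had 831 and 3084 counts in labelled knockout 1 and 2 and 1031 and 694 counts in wild type 1 and 2, at 1.25 (SE 0.58), and was thus high in labelled knockout 2 alone.

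The routes that pyruvate and glucose 6-phosphate can take otherwise had smaller fold changes than the 35 genes. Their gaps between libraries of the same label were smaller too. The median absolute log2 fold change was 0.12 over 15 tested genes of pyruvate and lactate fate (9 positive), 0.17 over 9 genes of the pentose phosphate pathway (2 positive) and 0.10 over 20 genes of the citric acid cycle (8 positive), against 0.39 over the 35 genes and 0.22 over all genes. Pcx, pyruvate carboxylase, was at 0.47 (SE 0.32) and Pdhb, a subunit of pyruvate dehydrogenase, at 0.29 (SE 0.24). Pgd and Tkt, enzymes of the oxidative and non-oxidative pentose branches, were at 0.23 (SE 0.24) and -0.17 (SE 0.20). Suclg2 and Sdhb, subunits of succinyl-CoA ligase and succinate dehydrogenase, were at -0.44 (SE 0.34) and -0.24 (SE 0.24).

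**Figure D5:**
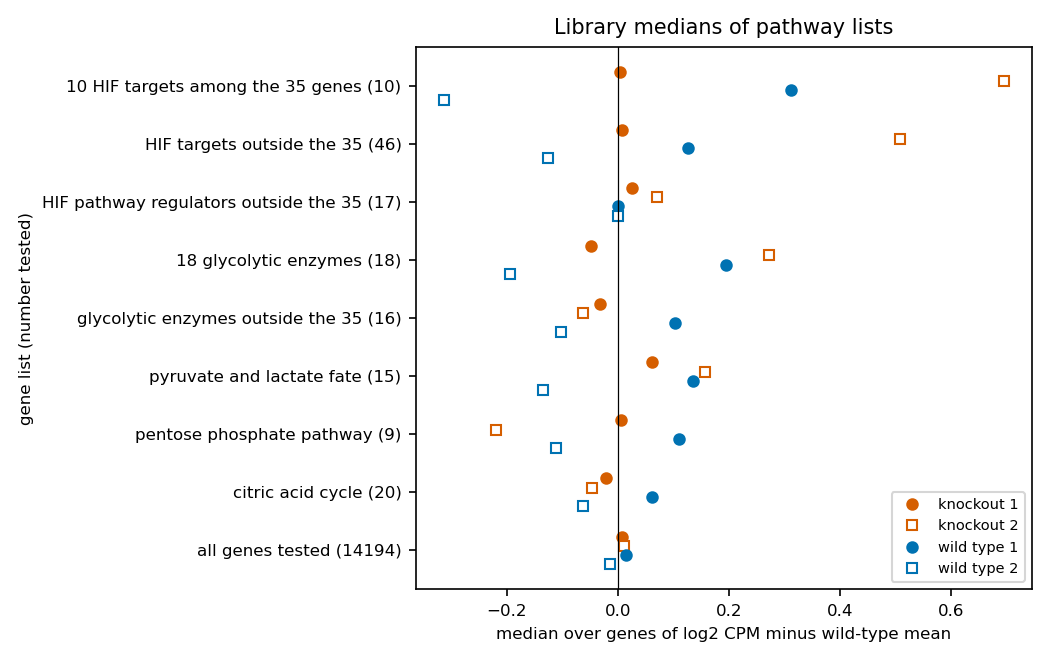
Median over the genes of a list of log2 CPM minus the wild-type mean (horizontal axis), for each library and for the lists named at the left with the number of genes tested. For both lists of HIF targets the library labelled knockout 2 lies farthest right, at 0.70 and 0.51, whereas labelled knockout 1 lies at 0.00 and 0.01. Wild type 1 and 2 lie at 0.31 and -0.31 for the 10 HIF targets among the 35 genes. For the other HIF targets they lie at 0.13 and -0.13. For the citric acid cycle all 4 libraries lie between -0.06 and 0.06.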

How the data were processed

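RNA-seq libraries of embryonic stem cells, 2 labelled Kdm2a knockout and 2 wild type, were analysed from the table of whole-number read counts per Entrez gene that the authors deposited without normalization. HISAT2, featureCounts and the mm10 build are named in the submitters' processing notes, and versions, strand and multi-mapping settings were not given in the sources used here. Symbols came from RefSeq for GRCm38.p6, the assembly of mm10 (24061 of 24116 genes). The unmatched genes held at most 0.0439% of a library. No label ties libraries to separate cultures, so a p-value here reflects only how far these samples spread, which could be technical. No pair of libraries held the same counts (chi-square per degree of freedom of at least 29.1).

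Genes were kept by filterByExpr (14194, all 35 members included), scaled by TMM and tested with the quasi-likelihood F test of edgeR 4.0.16 (R 4.3.3) on genotype alone, with Benjamini-Hochberg adjustment over all genes and a threshold of 0.05. SE was obtained from the fold change and the F statistic, as |log2 fold change| over root F. Log2 CPM used a prior count of 2. TPM used union exon lengths of the GENCODE basic annotation (21170 genes). Shared windows were 50-base stretches of a member's annotated transcripts, retained introns included, found in another gene's transcripts on either strand. A share of windows can thus be lower than the share within exons alone, which was not measured. A count of 0 allows up to 3 counts, for counting error only.

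Alternatives were other scalings and filters, DESeq2 1.42.0, limma-voom (limma 3.58.1), the edgeR likelihood ratio test, the replicate number as a block, leaving out each library, and a cutoff of 0.01. The edgeR, DESeq2 and limma-voom tests without a block were tested on simulated counts. The members and lists were chosen with earlier results of these data known. Values in every library were given for Kdm2a, members at an unadjusted p under 0.05, the 3 largest fold changes, the most abundant gene per length of each role and the 3 transporters, and the 2 lowest p-values of each other list were named. Other genes were singled out after their values were seen.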

Additional observations from a re-analysis of the deposited data

How the results depend on the processing

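The count of 0 members called held under 3 other scalings, 2 other filters (34 members were tested under the stricter one), the threshold of 0.01, DESeq2, limma-voom and the edgeR likelihood ratio test. Over all genes DESeq2 called 2 and the likelihood ratio test 4, and the cause was not tested. Upper-quartile scaling turned the log2 fold change of Aldoa to -0.001, and library totals alone turned Aldoa to -0.004 and Gpi1 to -0.003. Leaving out each library in turn gave 0 to 91 genes and 0 to 1 members called, the 1 being Hk2 without labelled knockout 1, which also gave the 91 genes. It gave 16 to 28 positive members, member medians of -0.033 to 0.41 and medians over the other HIF targets of -0.028 to 0.49, each lowest without labelled knockout 2. Members whose direction turned when a library was left out were, with the lowest and highest log2 fold change, Aldoa (-0.19 to 0.33), Car9 (-0.35 to 0.29), Ddit4 (-0.33 to 2.65), Eno1 (-1.32 to 0.48), Eno2 (-0.17 to 1.70), Gpi1 (-0.19 to 0.25), Hif1a (-0.037 to 0.26), Hk2 (-2.05 to 0.50), Kdm3a (-0.095 to 1.61), Ldhb (-0.65 to 0.31), Ndrg1 (-0.002 to 1.49), P4ha1 (-0.31 to 0.75), P4ha2 (-0.37 to 0.67), Pdk1 (-0.39 to 1.02), Pfkl (-0.07 to 0.51), Slc16a3 (-0.11 to 0.94), Slc2a3 (-0.071 to 0.34), Tpi1 (-0.038 to 0.53) and Vegfa (-0.21 to 0.41).

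The labels share replicate numbers but do not say that a number marks a shared culture or day. Differences between library 2 and library 1 correlated across the 14194 genes at r = 0.347 between the labels, and at r = 0.077 across the 35 members. With the replicate number as a block, 0 members and 0 genes were called, the member median was 0.21, 26 members were positive, and 6 members (Hk1, Aldoc, Gapdh, Egln3, Bnip3 and Kdm3a) had an unadjusted p under 0.05, against 2 without the block. Over all 14194 genes the same counts were 735 with the block and 242 without.

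The low-shared-window members, the Eno1 sum and the medians of the other HIF targets were added after the data were seen. At these depths Car9, with 36 to 56 counts, is the member whose values counting error limits most.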

Other observations

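A few genes with low counts stood high in the library labelled knockout 2, and were picked after their values were seen. Foxa2, a factor of endoderm, had 1 and 59 counts in the libraries labelled knockout 1 and 2 and 1 and 0 counts in wild type 1 and 2. Zic1, a neural factor, had 2 and 32 counts in labelled knockout 1 and 2 against 4 and 3 counts in wild type 1 and 2. Sox7, a factor of primitive endoderm, had 11 and 60 counts in labelled knockout 1 and 2 and 5 and 12 counts in wild type 1 and 2. The primitive endoderm markers did not all go this way. Of the 6 tested, 4 were higher in labelled knockout 2 than in labelled knockout 1. Gata6 was lower there, with 48 and 27 counts in labelled knockout 1 and 2, and so was Pdgfra with 42 and 28. Sox17, which was not tested, had 6 and 1 counts. Bhlhe41, a repressor related to Bhlhe40 and in the list of other HIF targets, had 57 and 759 counts in labelled knockout 1 and 2 and 97 and 11 counts in wild type 1 and 2. Their relation to the HIF target values of that library was not tested.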
